A study of Mus musculus with 6 samples.

Results

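The 45 genes described here encode the proteins that license and fire replication origins, copy DNA and supply deoxynucleotides. They were chosen by name, from the licensing factors to thymidine kinase, and matched by gene symbol. All 45 were listed in both deposited tables, out of 18946 genes listed in either, and all 45 passed the filter on low values (FPKM no lower than 1 in 2 or more libraries), as did 11050 of the 16799 genes in both tables. FPKM is a count of fragments scaled to transcript length and library size. The RNA came from BaF3, a mouse pro-B cell line that grows only with interleukin-3, and which the labels class as chronic lymphocytic leukemia. The con group had been nucleofected with pmax-Clover, a plasmid for a green fluorescent protein. The ICN group had received pmax-Clover-ICN, where ICN is the usual short name of the intracellular domain of NOTCH1, and the CTdel group had received pmax-Clover-CTdel, which the series text lists as a mutated ICN. All 3 groups were grown with 2 ng/mL mouse interleukin-3 and 10% fetal bovine serum and sorted after 24 hours. There were 2 libraries a group, and those numbered 1 were deposited in one table and those numbered 2 in another. The sources used here do not state what the CTdel mutation alters, which species the ICN sequence comes from or whether the libraries came from separate cultures. The p-values thus reflect only how far these libraries spread, which may be technical.

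A replication origin is licensed when the origin recognition complex (Orc1 to Orc6), Cdc6 and Cdt1 load the ring of Mcm2 to Mcm7 onto DNA, and geminin (Gmnn) holds Cdt1 back after licensing. Cdc45 and the GINS complex turn that ring into an active helicase, polymerase alpha and its primase start each strand, polymerases delta and epsilon extend it on the sliding clamp PCNA, and replication factor C (Rfc1 to Rfc5) loads the clamp. Many of these genes are transcribed at the border of the G1 and S phases under E2F factors, so in a dividing population their RNA rises and falls together. In bulk RNA, fewer cells in S phase and less RNA of these genes per cell cannot be told apart.

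The promoters of 5 of these genes, picked by hand, are shown as examples with and without E2F words. They are the 200 bases before the transcription start, credited to RefSeq on GRCm38.p6, whose table held 37 of the 45 genes. Capitals mark matches on either strand to the E2F words TTTCCCGC, TTTCGCGC, TTTGCCGC and TTTGGCGC or to the CCAAT box.
Mcm6 promoter, chr1:128359706-128359905, minus strand: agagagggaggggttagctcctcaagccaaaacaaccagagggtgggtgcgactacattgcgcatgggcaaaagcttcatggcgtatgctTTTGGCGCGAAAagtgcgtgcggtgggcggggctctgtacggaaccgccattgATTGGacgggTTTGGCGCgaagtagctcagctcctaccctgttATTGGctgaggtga
Gins3 promoter, chr8:95633359-95633558, plus strand: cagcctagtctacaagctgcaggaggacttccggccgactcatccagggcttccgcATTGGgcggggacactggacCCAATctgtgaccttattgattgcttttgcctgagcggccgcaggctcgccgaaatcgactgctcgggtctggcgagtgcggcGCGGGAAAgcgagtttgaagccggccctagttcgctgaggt
Rfc3 promoter, chr5:151651209-151651408, minus strand: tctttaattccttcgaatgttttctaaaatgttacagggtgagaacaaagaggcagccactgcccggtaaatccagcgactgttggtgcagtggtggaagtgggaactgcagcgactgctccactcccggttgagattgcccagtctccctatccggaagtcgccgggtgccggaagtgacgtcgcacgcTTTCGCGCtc
Rrm2 promoter, chr12:24708054-24708253, plus strand: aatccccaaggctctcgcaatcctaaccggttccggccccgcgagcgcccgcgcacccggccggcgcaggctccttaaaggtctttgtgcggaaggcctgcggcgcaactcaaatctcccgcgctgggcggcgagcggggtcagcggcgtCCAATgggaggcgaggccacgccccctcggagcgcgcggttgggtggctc
Pcna promoter, chr2:132253181-132253380, minus strand: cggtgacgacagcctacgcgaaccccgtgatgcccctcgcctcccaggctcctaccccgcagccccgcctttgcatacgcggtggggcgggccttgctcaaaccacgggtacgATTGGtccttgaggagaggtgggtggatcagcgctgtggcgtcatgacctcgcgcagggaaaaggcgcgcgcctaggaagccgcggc
Mcm6 had 3 E2F matches before its start, at 110, 106 and 47 bases, where the first 2 overlap, and 2 CCAAT boxes. Gins3 had 1 at 41 bases and Rfc3 had 1 at 10 bases. In Rrm2 and Pcna none of the 4 words occurred in the window, and each had a CCAAT box, at 50 and 87 bases. In windows from 250 bases before to 50 bases after the start, 15 of the 37 genes (40.5%) held an E2F word, against 2.6% of the 27025 genes in the table and 4.96% of the tested genes in it. The CCAAT box was in 23 of 37 (62.2%, against 43.5% of tested genes). The word TGGGAA, the core bound by RBPJ, the DNA-binding partner of the Notch intracellular domain, was in 18 of 37 (48.6%, against 26.3%). A TTTGAA element (CHR), known from genes of G2 and mitosis, was in 5 of 37 (13.5%, against 14.6%). Such matches describe letters only.

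The labels were checked through Notch1, which had FPKM 0.89 and 1.72 in con, 190.0 and 888 in ICN and 84.9 and 25.4 in CTdel, higher wherever an ICN plasmid had been given. The values do not separate plasmid from endogenous transcripts. Read totals are unknown. From the smallest values above 0 in equally long small RNA genes, depth was estimated at 0.962 to 1.08 times that of con replicate 1. This assumes that such a value stands for the same number of fragments in every library. FPKM summed to 489693 to 507894 per library. Of the 10 pro-B and BaF3 markers found, 5 were at FPKM 1 or more in both con libraries (Cd79b, Il3ra, Csf2rb, Csf2rb2 and Ptprc). The interleukin-3 receptor chains Il3ra (30.04 and 23.7 in con) and Csf2rb (273 and 170.4) were well above 1. The B-lineage gene Cd79b ranged from 3.62 to 13.4, while Vpreb1, Igll1 and Ebf1 stood at or below 0.37 in every library. Ptprc, a surface phosphatase of blood cells, had 77.6 and 32.6 in con, 142 and 83.6 in ICN and 255 and 178 in CTdel and rose by 2.06 in CTdel (adjusted p = 0.0263). The 5 T-cell markers summed to at most 2.23 per library. The 3 macrophage markers found summed to between 22.5 and 73.2, mostly Adgre1 (60.8 and 33.2 in con). Csf1r had 0.05 and 0.01 in con, 3.34 and 0.1 in ICN and 7.96 and 1.72 in CTdel, and Lyz2 ranged from 0.88 to 5.08. Of the 4 fibroblast and endothelial markers found, only Pecam1 was at FPKM 1 or more in both con libraries (62.8 and 51.6). The erythroid genes Hba-a1 and Epor summed to 121 and 582 in con, 159 and 381 in ICN and 85.8 and 220.2 in CTdel, and the part of these cell markers in the results was not tested. The 68 replication-dependent histone genes summed to 203 and 902.5 in con, 394 and 1311 in ICN and 410.3 and 1034 in CTdel, the higher value in replicate 2 each time. Only 10 of them were at FPKM 1 or more in both con libraries. On the log2(FPKM + 1) scale, the 44 tested had median changes from con of 1.08 and 1.29 in ICN replicates 1 and 2. In CTdel these were 0.73 and 0.03. The 45 genes went the other way in ICN replicate 2 (median −0.74), and the part of the histone genes was not tested. Of the 45 genes, 17 have exons that overlap those of another gene in GENCODE vM21, among them Mcm7, Rfc2, Rfc5, Fen1 and Tk1. Since the strand of the counting is not stated in the sources used here, reads of such neighbours may be mixed.

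The replication genes differed more between the 2 con libraries than between the groups averaged over both replicates. Their FPKM summed to 1718 in con replicate 1 and 3116 in con replicate 2, that is 0.347% and 0.623% of all FPKM. The sums were 2568 and 1829 in ICN and 2217 and 2851 in CTdel, all 4 of them between the con libraries. Con replicate 2 was above con replicate 1 for 42 of the 45 genes (percent of all tested genes: 46.8), and by over 1.5 times for 34 of 45 (12.2% of all tested genes). The median difference between the con libraries was 0.83 on the log2(FPKM + 1) scale, against −0.03 over all tested genes. The median change from con over both replicates was −0.10 in ICN and 0.09 in CTdel. These averages join replicates of opposite sign for most genes. Within replicates 1 and 2 the medians were 0.49 and −0.74 in ICN, and 0.30 and −0.15 in CTdel. In CTdel, 43 of 45 genes were likewise higher in replicate 2 (53.2% of all tested genes), with a smaller median difference of 0.37. In ICN the order was the other way, with 40 of 45 genes lower in replicate 2 (52.3% of all tested genes) and a median of −0.40. For 16 genes, con replicate 1 was the lowest of the 6 libraries and con replicate 2 the highest (35.6% of the 45, against 3.73% of all tested genes), and 7.67% of all tested genes had all 4 libraries with a plasmid for an ICN form between the con libraries in either order. Those 16 included all of Mcm2 to Mcm7, both licensing factors Cdc6 and Cdt1, and Gins2. These levels are set across tables that were deposited separately, and nothing in the labels says how the libraries of number 1 and 2 differed. Small nuclear and nucleolar RNAs (102 genes) summed to 786 and 1195 in con, 1295 and 649 in ICN and 1140.0 and 911 in CTdel. They were thus higher in replicate 2 in con and lower in it in ICN, like the replication genes, but lower in replicate 2 in CTdel, and their part in the result was not tested.

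**Figure D1:**
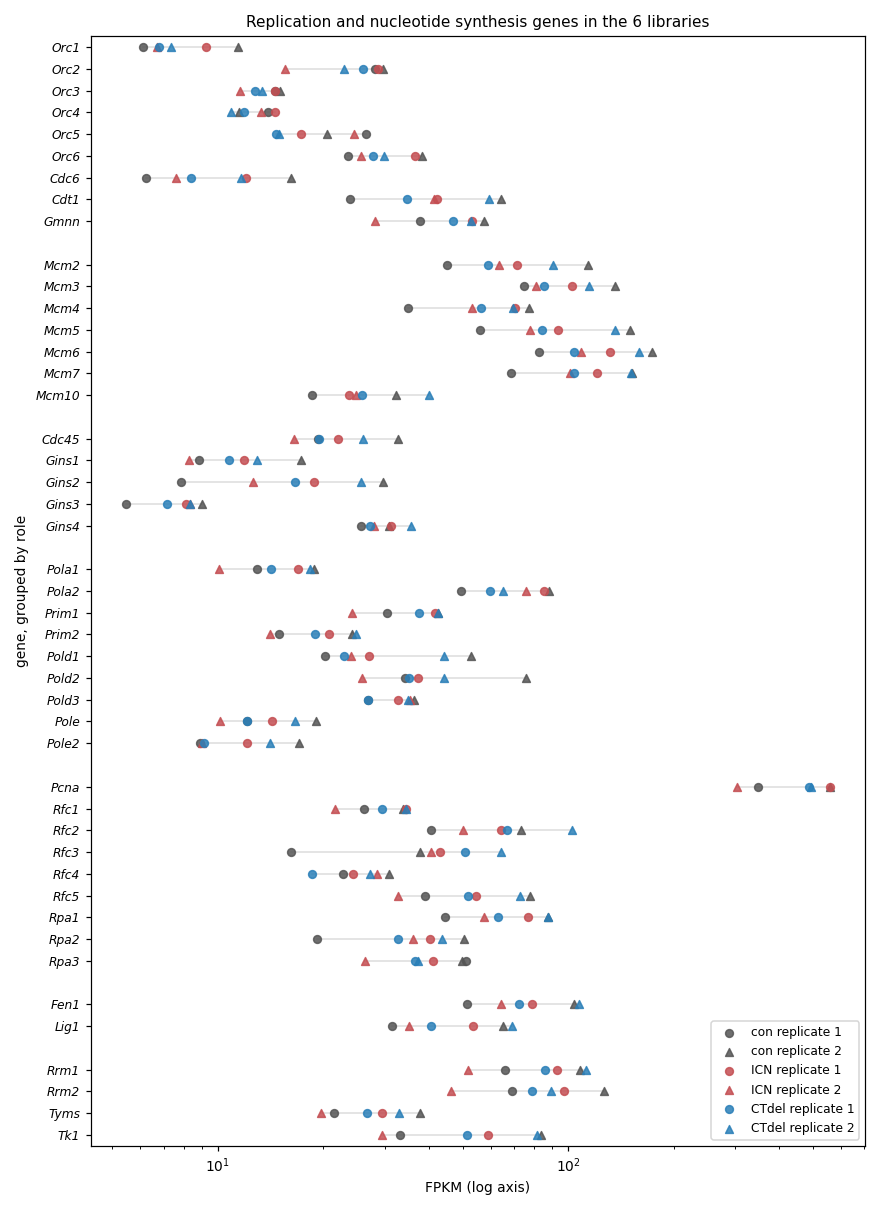
FPKM of the 45 genes (log axis) in each library, with circles for replicate 1, triangles for replicate 2 and a colour for each group. For Mcm2 to Mcm7 the grey circle of con replicate 1 is the lowest point and the grey triangle of con replicate 2 the highest, with the ICN and CTdel libraries between them.

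Within the tables, the change against con had opposite signs in the 2 replicates for most of the genes. In ICN, 41 of the 45 genes lay above con in replicate 1 and below con in replicate 2, a pattern seen in 21.7% of all tested genes. The median change was 0.49 in replicate 1 and −0.74 in replicate 2 (0.02 and 0.02 over all tested genes). In CTdel, 27 of 45 had the same pattern (16.4% of all tested genes), with medians of 0.30 and −0.15 (−0.06 and −0.02 over all tested genes). A further 10 lay above con in both CTdel replicates (Mcm10, Gins4, Prim2, Rfc1, Rfc2, Rfc3, Rpa1, Fen1, Lig1 and Rrm1, against 26.2% of all tested genes) and 8 below it in both (Orc2 to Orc5, Pold3, Pole, Rfc4 and Rpa3, against 35.8%). In ICN, 2 lay above con in both replicates (Orc4 and Rfc3, against 29.8%). Both comparisons use the same con libraries, so their patterns are not independent of each other. CTdel against ICN uses no con library, but it reuses the ICN and CTdel libraries of these comparisons. It is thus not independent of them either. In it 36 of 45 lay below ICN in replicate 1 and above it in replicate 2 (25.3% of all tested genes), with medians of −0.22 and 0.60 and 0.22 together. Both CTdel libraries stood above both ICN libraries for Mcm10, Rfc2 and Rfc3 (15.6% of all tested genes did so) and below both for Orc4, Orc5 and Pola2 (25% did so).

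**Figure D2:**
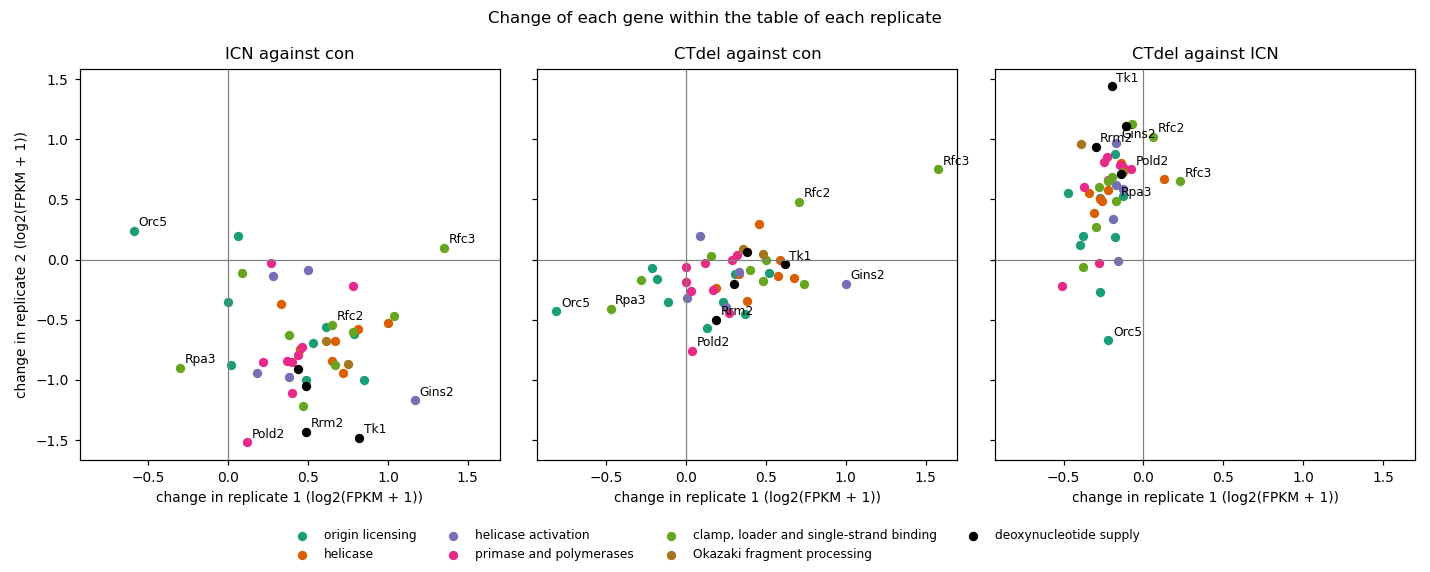
Change of each of the 45 genes on the log2(FPKM + 1) scale in replicate 1 (horizontal axis) and replicate 2 (vertical axis) for the 3 comparisons, coloured by role. Points in the lower right of the ICN panel are the 41 genes above con in replicate 1 and below it in replicate 2. In the CTdel panel Rfc3 stands at 1.58 and 0.75.

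No gene of the 45 passed the test in any comparison. The test was limma on log2(FPKM + 1) over all 11050 genes, with the table as a term and Benjamini-Hochberg adjustment, and the threshold was an adjusted p under 0.05. In ICN against con it called 0 of the 45 (0.0362% of all tested genes were called), with 1 of 45 (Rpa3) at an unadjusted p under 0.05, where 1663 of the 11050 tested genes were. In CTdel against con it called 0 (1.41% of all tested genes), with 1 (Rfc3) at an unadjusted p under 0.05, where 1302 of all tested genes were. In CTdel against ICN it called 0 (0.0181%), with 0 at an unadjusted p under 0.05, where 788 of all tested genes were. With both forms together against con it called 0 (1.11%), with 2 (Rfc3 and Rpa3) at an unadjusted p under 0.05, where 1707 of all tested genes were. Standard errors of the pairwise changes ran from 0.194 to 0.526, with a median of 0.332, so a miss does not show that levels were alike. For Mcm2 the 95% interval of the change was −0.99 to 0.80 in ICN and −0.87 to 0.92 in CTdel, and for Pcna it was −1.01 to 0.81 and −0.77 to 1.06. Without ICN replicate 1, leaving ICN replicate 2 as the one ICN library, 6 genes passed as lower in ICN than in con (Pold1, Pold2, Rfc5, Rrm1, Rrm2 and Tk1, where 4.74% of all tested genes were called lower). In that setting 6 also passed as higher in CTdel than in ICN (Lig1, Rfc2, Rfc5, Rrm1, Rrm2 and Tk1, where 3.13% were called higher). With both forms together, Pold2 passed as lower in that setting (3.48% of all tested genes were called lower), and without ICN replicate 2 Rfc3 passed as higher (4.21% were called higher).

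Among the licensing genes, Orc2 to Orc5 of the origin recognition complex differed by under 1.5 times between the con libraries. By the mean of con, Orc1 was the lowest licensing gene, at FPKM 6.13 and 11.4, and Gmnn the highest, at 37.6 and 57.4. Orc2, a core subunit, had 28.1 and 29.6 in con, 28.6 and 15.6 in ICN and 26.03 and 22.97 in CTdel. Its 2 con libraries were nearly equal, and ICN replicate 2 was the lowest library. Against con, Orc2 stood −0.43 in ICN (adjusted p = 0.474). In CTdel it stood −0.23 (adjusted p = 0.835). Orc3 had 14.5 and 15.1 in con, 14.6 and 11.6 in ICN and 12.8 and 13.4 in CTdel, a narrow range in which ICN overlapped con, with a change of −0.17 in ICN (adjusted p = 0.701). Orc4 had 13.9 and 11.5 in con, 14.5 and 13.3 in ICN and 11.9 and 10.9 in CTdel, where both CTdel libraries lay below both ICN libraries, with a difference of −0.27 between CTdel and ICN (adjusted p = 0.751). Orc5 had another pattern, with 26.5 and 20.5 in con, 17.2 and 24.4 in ICN and 14.7 and 14.96 in CTdel. Its CTdel libraries were the lowest of the 6, and it alone of the 45 lay below con in ICN replicate 1 and above it in replicate 2 (21.2% of all tested genes did so). Below both con libraries in CTdel lay Orc5, Orc2, Orc3 and Rpa3 (23.5% of all tested genes). The change of Orc5 in CTdel was −0.62 (adjusted p = 0.436), and CTdel against ICN gave −0.44 (adjusted p = 0.716).

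The loading factors differed more between libraries. Cdc6, the ATPase that recruits the helicase with Cdt1, had 6.25 and 16.2 in con, 12.03 and 7.61 in ICN and 8.39 and 11.6 in CTdel. Cdt1 had 23.9 and 64.3 in con, 42.1 and 41.3 in ICN and 34.7 and 59.5 in CTdel, so con replicate 2 was the highest library and con replicate 1 the lowest for both genes. Their inhibitor Gmnn had 37.6 and 57.4 in con, 53.3 and 28.1 in ICN and 46.8 and 52.8 in CTdel, with ICN replicate 2 the lowest. The ratio of Cdt1 to Gmnn, on FPKM within a library, was 0.634 and 1.12 in con, 0.791 and 1.47 in ICN and 0.742 and 1.13 in CTdel, higher in replicate 2 of each group. For the 9 licensing genes the median change was −0.08 in ICN and −0.14 in CTdel.

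The subunits of the helicase ring had 1 pattern in common. Mcm2 had 44.96 and 114 in con, 71.3 and 63.4 in ICN and 58.98 and 90.2 in CTdel, and Mcm6, the most abundant of the ring in every library, had 82.5 and 174 in con, 132 and 108 in ICN and 104 and 159 in CTdel. Mcm3 had 74.8 and 136 in con, 102 and 81.04 in ICN and 85.2 and 115 in CTdel, with a change of −0.14 in ICN (adjusted p = 0.843). Mcm4, the least abundant subunit of the ring, had 34.8 and 77.2 in con, 70.5 and 52.98 in ICN and 56.5 and 69.6 in CTdel. Each of these genes had its lowest value in con replicate 1 and its highest in con replicate 2. The ICN change of Mcm4 was 0.23 (adjusted p = 0.781). Mcm5 had 56.1 and 150.1 in con, 93.2 and 77.5 in ICN and 84.2 and 136 in CTdel, and CTdel differed from ICN by −0.14 and 0.80 in the replicates (together 0.33, adjusted p = 0.841). Mcm7 had 68.7 and 152 in con, 121 and 101 in ICN and 104 and 151 in CTdel, with a change of 0.29 in CTdel (adjusted p = 0.832).

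Con replicate 2 was 2.21 times con replicate 1 by the median over the 7 helicase genes, while the spread of levels within the ring had a narrow range over the 6 libraries. The highest of Mcm2 to Mcm7 was 2.37 and 2.25 times the lowest in con, 1.87 and 2.05 times in ICN and 1.84 and 2.29 times in CTdel, on FPKM. Mcm10, which is not part of the ring but helps to activate it, was the lowest helicase gene, with 18.5 and 32.3 in con, 23.6 and 24.8 in ICN and 25.9 and 39.96 in CTdel. It was above con in both CTdel replicates and above both ICN libraries, with a change of 0.38 against con (adjusted p = 0.662) and 0.40 against ICN (adjusted p = 0.731).

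For the helicase activators, Cdc45 had 19.3 and 32.6 in con, 22.03 and 16.5 in ICN and 19.4 and 25.98 in CTdel. CTdel replicate 1 nearly equalled con replicate 1, and ICN replicate 2 was the lowest library. The change of Cdc45 was −0.38 in ICN (adjusted p = 0.569), and CTdel stood 0.22 from ICN (adjusted p = 0.862). Gins2 differed most between the con libraries of all 45 genes, 3.78 times, with 7.83 and 29.6 in con, 18.8 and 12.6 in ICN and 16.6 and 25.6 in CTdel. Its ICN change was 1.17 in replicate 1 and −1.17 in replicate 2, or 0.00 together (adjusted p = 1). Over both CTdel replicates it stood 0.40 from con (adjusted p = 0.848), and between CTdel and ICN the difference was 0.40 (adjusted p = 0.853). The other GINS subunits differed less between the con libraries. Gins1 had 8.84 and 17.3 in con, 11.8 and 8.27 in ICN and 10.7 and 12.9 in CTdel (ICN change −0.30, adjusted p = 0.687), Gins3, the lowest of the role in con, ranged from 5.47 to 8.98, and Gins4, the highest of it in con by the mean, had 25.6 and 30.9 in con, 31.3 and 27.9 in ICN and 27.2 and 35.5 in CTdel (CTdel change 0.14, adjusted p = 0.877). Although the 4 subunits form one complex, Gins2 went from 0.306 times Gins4 in con replicate 1 to 0.958 times in con replicate 2.

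**Figure D3:**
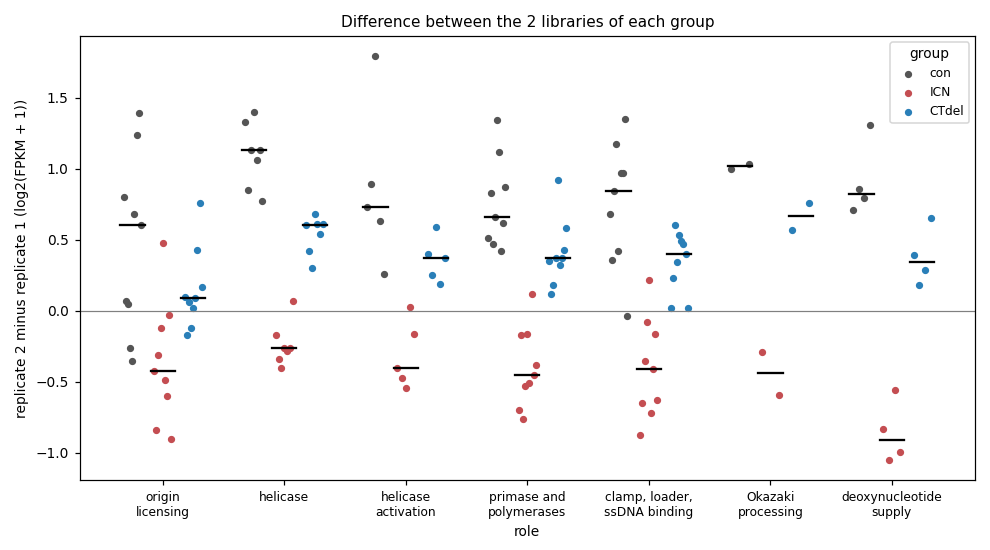
Difference between replicate 2 and replicate 1 of each group on the log2(FPKM + 1) scale for each gene, by role, with black bars at the medians. Con medians lie above 0 in every role, from 0.60 for licensing to 1.13 for the helicase, CTdel medians lie between 0.09 and 0.66, and ICN medians lie below 0, down to −0.91 for deoxynucleotide supply.

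Among primase and polymerase genes, Pola2, the regulatory subunit of polymerase alpha, was the highest in con (49.3 and 88.3), and Pole2, a subunit of polymerase epsilon, the lowest (8.88 and 17.1). Pold2, the small subunit of polymerase delta, had 34.1 and 75.6 in con, 37.2 and 25.8 in ICN and 35.02 and 44.1 in CTdel. Con replicate 2 stood far above the other 5 libraries, and the other 5 ranged from 25.8 to 44.1. Pold2 stood −0.70 from con in ICN (adjusted p = 0.428). In CTdel it stood −0.36 from con (adjusted p = 0.814). Both means rest on replicate 2, since the changes in replicate 1 were 0.12 and 0.04. Pold1, the catalytic subunit, had 20.2 and 52.8 in con, 26.96 and 24.02 in ICN and 22.9 and 44.2 in CTdel, while Pold3 kept to 26.8 to 36.3. Pold2 relative to Pold3 was thus 1.27 and 2.08 in con, 1.14 and 0.728 in ICN and 1.31 and 1.27 in CTdel. Pole, the catalytic subunit of polymerase epsilon, had 12.1 and 19.1 in con, 14.2 and 10.2 in ICN and 12.1 and 16.6 in CTdel (ICN change −0.31, adjusted p = 0.627).

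The primase subunits kept their ratio, with Prim1 at 1.72 to 2.04 times Prim2 in all 6 libraries. Prim2 had 14.9 and 24.1 in con, 20.8 and 14.1 in ICN and 18.9 and 24.7 in CTdel, with a change of 0.18 in CTdel (adjusted p = 0.893) and a difference of 0.32 between CTdel and ICN (adjusted p = 0.812). Pola2 had 49.3 and 88.3 in con, 85.4 and 75.6 in ICN and 59.7 and 64.9 in CTdel, and both CTdel libraries lay below both ICN libraries, with a difference of −0.36 (adjusted p = 0.76). Pola1, the catalytic subunit, ranged from 10.1 to 18.8. Of the 9 genes 9 lay above con in ICN replicate 1 and 0 in replicate 2.

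Pcna, the sliding clamp, was by far the most abundant of the 45, with FPKM 349 and 558 in con, 557 and 304 in ICN and 486 and 492 in CTdel. Con replicate 2 and ICN replicate 1 were nearly equal, and ICN replicate 2 was the lowest library. Rfc3, a small subunit of the clamp loader, had 16.2 and 37.7 in con, 43.01 and 40.6 in ICN and 50.6 and 64.2 in CTdel. The gene lies at chr5:151642817-151651208 of GRCm38. Each ICN and CTdel library exceeded each con library, which held for no other of the 45 genes in either form. Of all tested genes, 22.7% did so in ICN and 18.3% in CTdel, and the share in both forms at once was not counted. The change of Rfc3 was 1.17 in CTdel (SE 0.326, adjusted p = 0.213, 95% interval 0.37 to 1.97) and 0.73 in ICN (SE 0.326, adjusted p = 0.359). CTdel stood 0.44 from ICN (adjusted p = 0.754), and both forms together stood 0.95 from con (adjusted p = 0.214). When con and CTdel were fitted alone, the CTdel change of Rfc3 passed (adjusted p = 0.0155), as it did without ICN replicate 1 (0.0163) or ICN replicate 2 (0.0160), where 5.18%, 5.17% and 5.19% of all tested genes were called higher. These 3 fits rest on the same con and CTdel libraries, since a lone ICN library adds nothing to the spread. In the other settings the adjusted p of Rfc3 in CTdel was 0.0723 or more, up to 0.946 without CTdel replicate 1, and leaving out con replicate 1 gave a change of 0.65, leaving out con replicate 2 one of 1.69. Of the 37 genes with a promoter in the table, Rfc3 holds both an E2F word (in capitals in the sequence above) and TGGGAA. The same holds for Orc3, Cdc6, Mcm3, Mcm5, Mcm7, Pole2 and Lig1. The part of these words in the change of Rfc3 was not tested.

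The other loader subunits had other patterns. Rfc2 had 40.5 and 73.1 in con, 64.1 and 49.9 in ICN and 67.03 and 102 in CTdel, with CTdel above both ICN libraries and above con within each table, a change of 0.60 against con (adjusted p = 0.598) and 0.54 against ICN (adjusted p = 0.722). Rfc1, the large subunit, ranged from 21.5 to 34.5, and Rfc5 had 39.1 and 77.5 in con, 54.4 and 32.7 in ICN and 51.8 and 72.9 in CTdel, with ICN replicate 2 the lowest. Rfc4, the lowest of the role in con by the mean, had 22.8 and 30.8 in con, 24.3 and 28.4 in ICN and 18.5 and 27.2 in CTdel, where CTdel was below con within each table. The ratio of Rfc3 to Rfc4, on FPKM, was 0.712 and 1.22 in con, 1.77 and 1.43 in ICN and 2.73 and 2.36 in CTdel, so the groups did not overlap in it. ICN and CTdel did overlap in the ratios of Rfc3 to Rfc2 and to Rfc5. Rfc3 to Rfc2 was 0.401 and 0.516 in con, 0.671 and 0.814 in ICN and 0.755 and 0.629 in CTdel. Rfc3 to Rfc5 was 0.415 and 0.486 in con, 0.79 and 1.24 in ICN and 0.977 and 0.88 in CTdel. The ratio to Rfc4 was picked after the values were seen, and none of these ratios was tested.

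Rpa3, the smallest subunit of the single-strand binding protein RPA, was the gene of the 45 whose ICN libraries both lay below both con libraries (19.6% of all tested genes did so). It had 50.98 and 49.7 in con, 41.1 and 26.2 in ICN and 36.5 and 37.1 in CTdel, and the CTdel libraries were lower than con too. The change was −0.60 in ICN (SE 0.243, adjusted p = 0.332), the one unadjusted p under 0.05 of that comparison. Its partners Rpa1 and Rpa2 were lowest in con replicate 1, with 44.4 and 87.6 in con, 76.8 and 57.4 in ICN and 63.1 and 87.6 in CTdel for Rpa1 and 19.1 and 50.3 in con, 40.3 and 36.04 in ICN and 32.6 and 43.5 in CTdel for Rpa2. Rpa3 was 1.15 times Rpa1 in con replicate 1 and 0.424 to 0.579 times in the other 5 libraries.

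**Figure D4:**
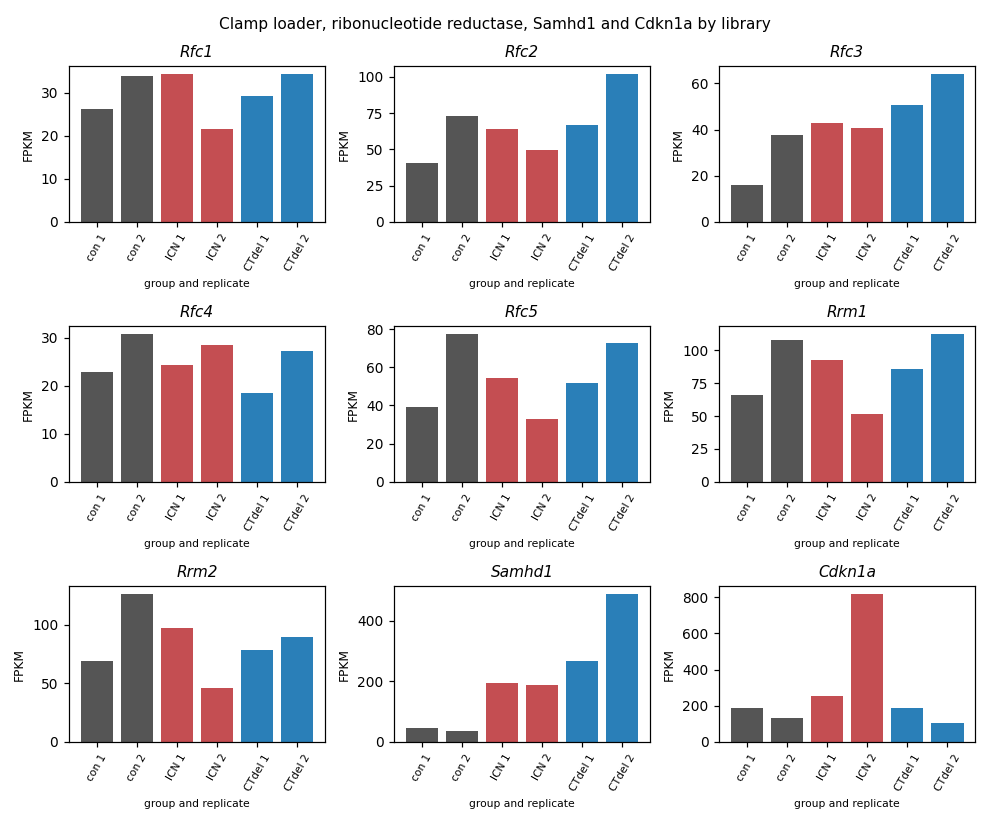
FPKM of the clamp loader genes Rfc1 to Rfc5, of the ribonucleotide reductase genes Rrm1 and Rrm2, and of Samhd1 and Cdkn1a in each library (bars, one library each, no error). For Rfc3 and Samhd1 all ICN and CTdel bars stand above both con bars, and for Cdkn1a the bar of ICN replicate 2 stands at 820.4.

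Fen1, the nuclease that trims Okazaki fragments, had 51.4 and 104 in con, 78.98 and 64.2 in ICN and 72.2 and 107 in CTdel, and Lig1, the ligase that seals them, had 31.3 and 64.9 in con, 53.3 and 35 in ICN and 40.4 and 68.99 in CTdel. In both, con replicate 1 was the lowest library and CTdel replicate 2 the highest. Their ICN changes were −0.04 and −0.06 (adjusted p = 0.967 and 0.952), and their CTdel changes 0.27 and 0.22 (adjusted p = 0.845 and 0.896). Between CTdel and ICN the differences were 0.30 and 0.28 (adjusted p = 0.828 and 0.872).

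In ICN replicate 2 the genes of deoxynucleotide supply were the role farthest below con, with a median change of −1.24 there against 0.49 in replicate 1. Rrm1, the large subunit of ribonucleotide reductase, had 65.8 and 108 in con, 92.7 and 51.8 in ICN and 85.6 and 113 in CTdel, and Rrm2, its small subunit, had 69.1 and 127 in con, 97.2 and 46.3 in ICN and 78.9 and 89.5 in CTdel, the highest of the role in con by the mean. ICN replicate 2 was the lowest of the 6 libraries for both. Rrm1 had opposite signs in the ICN replicates (0.49 and −1.05, together −0.28, adjusted p = 0.741), and so did Rrm2 (0.49 and −1.43, together −0.47, adjusted p = 0.616). In CTdel, Rrm1 stood 0.22 from con (adjusted p = 0.892) and 0.50 from ICN (adjusted p = 0.757). The ratio of Rrm2 to Rrm1 stayed between 0.795 and 1.17. Tk1, the thymidine kinase of the salvage pathway, had 33.2 and 83.7 in con, 59.1 and 29.3 in ICN and 51.5 and 81.5 in CTdel, with a change of 0.29 in CTdel (adjusted p = 0.896) and a difference of 0.62 between CTdel and ICN (adjusted p = 0.771). Tyms, which makes thymidylate and was the lowest of the 4 in con, had 21.4 and 37.7 in con, 29.4 and 19.7 in ICN and 26.6 and 32.8 in CTdel. Each of the 4 genes was lower in ICN replicate 2 than in any other library, by the order of FPKM across both tables. In the same library Cdkn1a, the inhibitor of cyclin-dependent kinases that p53 induces, had its highest value (188 and 131 in con, 254 and 820.4 in ICN and 187 and 106 in CTdel), and Notch1 had its highest as well. Their part in the result was not tested.

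Further genes of replication and nucleotide synthesis were read from a list of 58, all tested. In ICN 38 of 58 lay above con in replicate 1 and 6 in replicate 2, with medians of 0.15 and −0.75 (5706 and 5670 of the 11050 tested genes lay above con). In CTdel it was 34 and 12, with medians of 0.09 and −0.26 (4721 and 5227 of all tested genes). By limma 0 of 58 passed in ICN (5 at an unadjusted p under 0.05, namely Samhd1, Shmt2, Mthfd2, Dctd and Recql4, beside 1663 of all tested genes), 1 in CTdel (1.41% of all tested genes) and 0 in CTdel against ICN (2 at an unadjusted p under 0.05, Shmt2 and Samhd1, beside 788 of all tested genes). The gene that passed was Samhd1, which degrades deoxynucleotides and so acts against ribonucleotide reductase. It had 44.2 and 35.2 in con, 193 and 189 in ICN and 267 and 489 in CTdel, higher in each ICN and CTdel library than in con. It lies at chr2:157097534-157135096 of GRCm38. It rose by 3.16 in CTdel (SE 0.319, adjusted p = 0.0202). Its change was 2.25 in ICN (adjusted p = 0.12), which did not pass, and CTdel stood 0.92 from ICN (adjusted p = 0.663). With both forms together it rose by 2.70 (adjusted p = 0.0272). When con and ICN were fitted alone the ICN change of Samhd1 passed (adjusted p = 0.0132). The share of all tested genes called in that fit was not counted. With con and CTdel fitted alone, 5.18% of all tested genes were called higher in CTdel. Without a filter on low values Samhd1 did not pass in CTdel either (adjusted p = 0.139).

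Among the genes that make nucleotides and their one-carbon units, 18 of 30 lay above con in ICN replicate 1 and 2 of 30 in replicate 2, with medians of 0.03 and −1.08. In CTdel the medians were −0.01 and −0.47. The medians over both replicates, −0.56 in ICN and −0.32 in CTdel, thus rest on replicate 2. For the 28 replisome and licensing genes of the list the medians were 0.30 and −0.67 in ICN and 0.16 and −0.12 in CTdel. Shmt2, the mitochondrial serine hydroxymethyltransferase, had 222 and 234 in con, 119 and 110.2 in ICN and 170.2 and 169.7 in CTdel, with both ICN libraries lowest. Its change was −0.98 in ICN (adjusted p = 0.159), and CTdel stood 0.57 from ICN (adjusted p = 0.663). Mthfd2, the next mitochondrial enzyme of that pathway, had 138 and 75.6 in con, 41.95 and 47.5 in ICN and 73.8 and 69.5 in CTdel, again with both ICN libraries lowest (change −1.18, adjusted p = 0.204). CTdel stood 0.67 from ICN for Mthfd2 (adjusted p = 0.705). In CTdel the next smallest p were those of Dctd, a deaminase of dCMP (17.2 and 23.04 in con, 11.1 and 7.88 in ICN and 10.7 and 12.7 in CTdel, change −0.73, adjusted p = 0.37), and of the helicase Recql4 (15.5 and 16.7 in con, 9.07 and 8.89 in ICN and 8.70 and 12.4 in CTdel, change −0.59, adjusted p = 0.377). For Dctd, Recql4, Shmt2 and Mthfd2 each ICN and CTdel library was under both con libraries, as it was for Rpa3 of the 45 genes. Other genes of the list had the same order, among them Dbf4, Mtbp, Pole4 and Impdh1. Of all tested genes, 19.6% had both ICN libraries under both con libraries, and 23.5% had both CTdel libraries under them. The share with both at once was not counted.

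**Figure D5:**
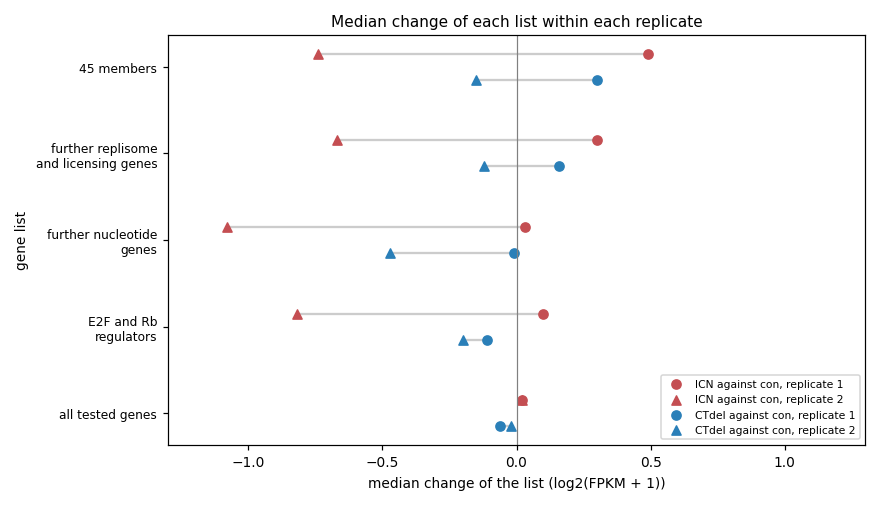
Median change against con on the log2(FPKM + 1) scale within replicate 1 (circles) and replicate 2 (triangles) for ICN and CTdel, by gene list. For the 45 genes the ICN medians are 0.49 and −0.74, while the medians over all tested genes are 0.02 in both.

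Regulators of the G1/S border, a list of 20, had medians of 0.10 and −0.82 in ICN replicates 1 and 2, and of −0.11 and −0.20 in CTdel, where both lay below 0. E2f1, the activator whose targets include many of these genes, had 7.60 and 17.5 in con, 14.1 and 8.08 in ICN and 11.96 and 16.1 in CTdel, with con replicate 1 lowest and con replicate 2 highest. Ccne1, the cyclin that drives entry into S phase, had 18.4 and 50.6 in con, 30.9 and 14.7 in ICN and 22.4 and 24.7 in CTdel. In ICN it stood 0.72 and −1.72 from con in the 2 replicates. Of the 20 regulators 0 passed in any of the pairwise comparisons by limma (E2f4 and Cdkn1a, 2 in all, in ICN, 0 in CTdel and 1, Cdkn1a, in CTdel against ICN at an unadjusted p under 0.05). Over all tested genes, 1663 in ICN, 1302 in CTdel and 788 in CTdel against ICN were at such a p. E2f1 and Ccne1 were picked after their values were seen. The 15 genes with an E2F word in the promoter window differed between the con libraries by a median of 1.03 and the 22 without one by 0.75, while their ICN medians were 0.53 and −0.69 against 0.45 and −0.81. The direction in each replicate was thus the same with and without the word.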

How the data were processed

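RNA libraries (MGIEasy mRNA kit, per the labels' protocols) of 6 samples were used. Per the file headers, the authors deposited gene-level FPKM values, in one table per replicate number. RSEM, Bowtie2 and HISAT2 are named in the submitters' processing notes, as are mm10 and hg19, without versions or roles. Genes were matched by symbol, and coordinates came from RefSeq for GRCm38.p6.

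Values were tested as log2(FPKM + 1), which understates changes of low genes, with limma 3.58.1 in R 4.3.3 (intensity trend, 2-sided). Terms of the model were the group (3 levels) and the table, with 2 residual degrees of freedom (median prior degrees of freedom 3.82). Benjamini-Hochberg adjustment ran over 11050 genes. The fit was run on simulated data with a smaller spread than these libraries and larger changes than the 45 genes had. That run checks the code and does not measure what the test can detect here. The genes named with all values were, per role and pairwise comparison, the 2 with the smallest p, and of the further list those that passed and the 3 with the smallest p. The highest and lowest gene of each role in con were also named, and other genes were picked for their role. The 45 genes, the lists and the promoters shown were chosen with earlier results of these data known. No interval for counting error was computed, since read totals are unknown. Alternatives covered the table term, pseudocount, filter, scaling, trend, libraries fitted and each library left out.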

Additional observations from a re-analysis of the deposited data

How the results depend on the processing

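Read totals are unknown, and 2 libraries a group limit what the test can see. The libraries of one number share a deposited table, so the table was a term of the model, and the deviations of same-numbered libraries correlated at r = −0.10 (con and ICN), 0.33 (con and CTdel) and 0.24 (ICN and CTdel) across 11050 genes. With no replicate block, that is without the pairing by table, limma again called 0 of the 45 genes in all 4 comparisons, and the lowest adjusted p were 0.356, 0.283, 0.786 and 0.265 in ICN against con, CTdel against con, CTdel against ICN and both forms against con. Another pseudocount, no filter, another scaling or no trend also called 0. With only con and CTdel fitted, 1 of the 45 was called in CTdel (Rfc3). Leaving out 1 library at a time, the genes called ranged from 0 to 6 in ICN against con, 0 to 1 in CTdel against con, 0 to 6 in CTdel against ICN and 0 to 1 for both forms. The highest counts of 6 came without ICN replicate 1. In that setting Pold2 was the gene called for both forms, and without ICN replicate 2 it was Rfc3. A group left with 1 library is assumed to vary like the others.

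The median change of the 45 genes ranged from −0.66 to 0.37 in ICN against con, −0.34 to 0.51 in CTdel against con, −0.29 to 0.71 in CTdel against ICN and −0.43 to 0.40 for both forms, when 1 library was left out. Of the 51 gene results, 28 had a change of sign in such a run, and 0 in any other alternative. In ICN against con the log2 changes with 1 library left out ranged, lowest to highest, for Cdc45 (−0.86 to 0.10), Fen1 (−0.57 to 0.50), Gins1 (−0.82 to 0.22), Lig1 (−0.81 to 0.68), Mcm3 (−0.63 to 0.34), Mcm4 (−0.36 to 0.82), Orc3 (−0.36 to 0.01), Pole (−0.80 to 0.17), Rrm1 (−0.97 to 0.41) and Rrm2 (−1.26 to 0.31). In CTdel against con they ranged for Fen1 (−0.16 to 0.70), Gins2 (−0.48 to 1.28), Gins4 (−0.02 to 0.30), Lig1 (−0.25 to 0.70), Mcm7 (−0.20 to 0.79), Orc2 (−0.52 to 0.06), Pold2 (−0.97 to 0.24), Prim2 (−0.19 to 0.55), Rrm1 (−0.24 to 0.68) and Tk1 (−0.45 to 1.03). In CTdel against ICN they ranged for Cdc45 (−0.26 to 0.70), Fen1 (−0.24 to 0.84), Gins2 (−0.47 to 1.27), Lig1 (−0.46 to 1.03), Mcm5 (−0.32 to 0.98), Prim2 (−0.20 to 0.84), Rrm1 (−0.19 to 1.18) and Tk1 (−0.36 to 1.61). The cause was not tested.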
